A study of Homo sapiens with 6 samples.

Results

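The genes described here encode the machinery that starts transcription by RNA polymerase II. They were chosen by symbol alone from the protein-coding genes of GENCODE release 29 (GRCh38): the subunits POLR2A to POLR2L, the general factor genes whose symbols begin with GTF2A, GTF2B, GTF2E, GTF2F or GTF2H, the TAF genes and the MED genes. The rule found 80 of 19864 protein-coding genes on chromosomes 1 to 22 and X. By complex these were 12 RNA polymerase II subunits, 3 genes of TFIIA, 1 of TFIIB, 2 of TFIIE, 2 of TFIIF, 6 of TFIIH, 13 TAF subunits of TFIID, 4 paralogues of such TAFs, 7 other genes with a TAF symbol and 30 Mediator genes.

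RNA polymerase II cannot find a promoter on its own. TFIID, built of the TATA-binding protein and TAFs, recognises core promoter DNA, TFIIA and TFIIB join it, the polymerase arrives with TFIIF, and TFIIE and TFIIH open the DNA and phosphorylate the polymerase's tail. Mediator connects this assembly to activators bound at enhancers. Nearly every cell needs most of these proteins, so their genes are usually counted among the housekeeping genes.

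The samples were 6 nascent RNA libraries from K562, an established human leukaemia line, in 3 groups of 2 biological replicates kept at least 3 passages apart and given no treatment. Precision run-on sequencing (PRO-seq) labels the RNA that engaged polymerases are making with biotin and sequences its ends. The group called PRO-seq 1M used 1M permeabilized cells and an earlier published protocol with 3 affinity purifications, the group qPRO-seq 1M used the same input with a quick protocol that has 1 purification, and the group qPRO-seq 250k used the quick protocol on 250k cells, with 14 PCR cycles against 11 in the other groups. Each group was represented by 1 list of dREG peaks, regions that a classifier scores as active promoters or enhancers from run-on signal on both strands, so no value has a spread between replicates and no test between groups was possible. All cells came from the same line, and the lists carry no read counts, so the depth behind them is unknown and protocol, input and depth cannot be told apart.

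The lists held 24707 (PRO-seq 1M), 38177 (qPRO-seq 1M) and 15562 peaks (qPRO-seq 250k) on the chromosomes used. Wherever 3 values follow each other without a list name, they are in this order. The labels call K562 lymphoblastoid. Of 8 erythroid and myeloid leukaemia marker genes, 7, 8 and 6 had a peak at a transcript start. Of the lymphoid markers described here, EBF1 had one in both 1M lists, and MS4A1, CD79A, PAX5, CD3E, CD3D and CD2 had none in any list.

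The start regions of 63 of the 80 genes were found in the RefSeq promoter table (GRCh38.p14). Short motifs were searched on both strands of each window, from 250 bases before to 50 bases after the start, and a match describes letters only. The stretches printed here run from 150 bases before the start to its base 30, on the strand of the gene. The first set shows the letters CCGGAAG, the core of sites bound by ETS family factors, or their reverse complement, in capitals, because 25 of the 63 windows held them. TAF13, MED18, MED17 and TAF1A are members with high-scoring peaks, and POLR2C is a member with no peak at a start. In MED18 the capitals also mark GCATGCGC (NRF1) on both strands, which overlap, and in TAF1A also CCAAT.
TAF13 (chr1:109075974-109076153, minus strand): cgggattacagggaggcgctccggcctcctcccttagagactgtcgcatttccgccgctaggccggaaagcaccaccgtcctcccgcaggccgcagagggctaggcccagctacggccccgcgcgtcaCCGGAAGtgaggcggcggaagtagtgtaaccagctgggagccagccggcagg
MED18 (chr1:28328890-28329069, plus strand): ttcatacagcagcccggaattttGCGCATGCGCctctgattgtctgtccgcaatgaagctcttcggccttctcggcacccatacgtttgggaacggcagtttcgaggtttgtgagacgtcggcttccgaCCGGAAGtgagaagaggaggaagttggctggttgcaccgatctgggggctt
MED17 (chr11:93784132-93784311, plus strand): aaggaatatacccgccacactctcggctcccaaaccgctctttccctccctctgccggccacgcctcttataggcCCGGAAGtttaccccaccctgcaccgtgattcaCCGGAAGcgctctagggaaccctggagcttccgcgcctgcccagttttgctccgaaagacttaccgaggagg
TAF1A (chr1:222589904-222590083, minus strand): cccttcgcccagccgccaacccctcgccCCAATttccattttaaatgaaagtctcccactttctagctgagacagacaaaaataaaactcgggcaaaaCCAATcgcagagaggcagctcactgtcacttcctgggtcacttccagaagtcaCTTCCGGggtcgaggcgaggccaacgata
POLR2C (chr16:57462529-57462708, plus strand): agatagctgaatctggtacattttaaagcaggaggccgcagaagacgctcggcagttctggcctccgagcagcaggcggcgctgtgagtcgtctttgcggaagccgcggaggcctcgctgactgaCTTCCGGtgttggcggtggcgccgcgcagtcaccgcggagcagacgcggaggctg
The second set shows other start types. POLR2A and TAF7 held the GC box GGGCGG, bound by SP family factors, and no ETS letters. GTF2B was the member with TATAAA at the place textbooks give for a TATA box.
POLR2A (chr17:7484216-7484395, plus strand): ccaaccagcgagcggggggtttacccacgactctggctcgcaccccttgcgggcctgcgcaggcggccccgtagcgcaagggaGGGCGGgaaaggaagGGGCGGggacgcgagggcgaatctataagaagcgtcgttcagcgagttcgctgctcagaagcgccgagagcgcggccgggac
TAF7 (chr5:141320755-141320934, minus strand): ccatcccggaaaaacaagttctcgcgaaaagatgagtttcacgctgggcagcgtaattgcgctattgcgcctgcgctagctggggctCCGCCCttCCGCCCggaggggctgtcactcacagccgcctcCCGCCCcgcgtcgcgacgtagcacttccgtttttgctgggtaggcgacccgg
GTF2B (chr1:88891538-88891717, minus strand): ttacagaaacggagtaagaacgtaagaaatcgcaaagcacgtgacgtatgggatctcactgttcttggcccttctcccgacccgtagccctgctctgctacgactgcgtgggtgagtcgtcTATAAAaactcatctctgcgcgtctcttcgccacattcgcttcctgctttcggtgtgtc
The last pair is printed because these starts are nearly the same sequence. GTF2H2 and GTF2H2C lie apart on chromosome 5, and 268 of 270 aligned bases of their windows were identical (99.3%). Capitals mark the ETS letters and, in GTF2H2, a GC box.
GTF2H2 (chr5:71067647-71067826, minus strand): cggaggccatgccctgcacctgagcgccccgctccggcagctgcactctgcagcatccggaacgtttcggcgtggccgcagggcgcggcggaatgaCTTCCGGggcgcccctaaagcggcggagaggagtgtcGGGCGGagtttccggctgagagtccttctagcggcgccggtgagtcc
GTF2H2C (chr5:69560041-69560220, plus strand): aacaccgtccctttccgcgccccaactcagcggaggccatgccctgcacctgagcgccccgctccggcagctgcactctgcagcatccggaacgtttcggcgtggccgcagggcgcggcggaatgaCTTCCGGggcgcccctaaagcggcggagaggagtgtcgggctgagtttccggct

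A start peak of a gene is any peak no more than 500 bp from one of its transcript starts in the annotation. The members had between 1 and 30 such starts, with a median of 7. In the PRO-seq 1M list 64 of the 80 genes had a start peak (80.0%, Wilson 95% interval 70.0 to 87.3%, counting error only), beside 52.9% of all protein-coding genes. The qPRO-seq 1M list marked 69 (86.2%, 77.0 to 92.1%), beside 54.5% of all genes, and the qPRO-seq 250k list marked 59 (73.8%, 63.2 to 82.1%), beside 44.0%. In each list the members' share was above that of protein-coding genes in general. When each list was limited to its 15562 top-scored peaks, the order of the lists changed and 60, 58 and 59 members had a start peak, beside 47.0, 42.4 and 44.0% of all genes. Using the single RefSeq start of the 63 matched genes, 49, 52 and 45 had one, beside 51.2, 52.1 and 42.6% of all genes with such a start.

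Start peaks were nested across the lists. All 59 genes marked from 250k cells were marked in both 1M lists too, so 59 members (73.8%) had a start peak in all 3 lists, beside 43.1% of all genes. Such nesting was also usual for other genes, since 8566 of the 8735 genes marked from 250k cells (98.1%) were marked in both 1M lists. Another 5 members (6.25%, beside 7.86% of all genes) were marked in both 1M lists and not from 250k cells: POLR2J, TAF6L, MED4, MED6 and MED9. A further 5 (6.25%, beside 2.97%) were marked only by qPRO-seq 1M: GTF2A2, TAF9, TAF9B, TAF15 and MED27. No list marked the remaining 11 (13.8%), beside 43.5% of all genes. No member was marked in any other combination.

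**Figure D1:**
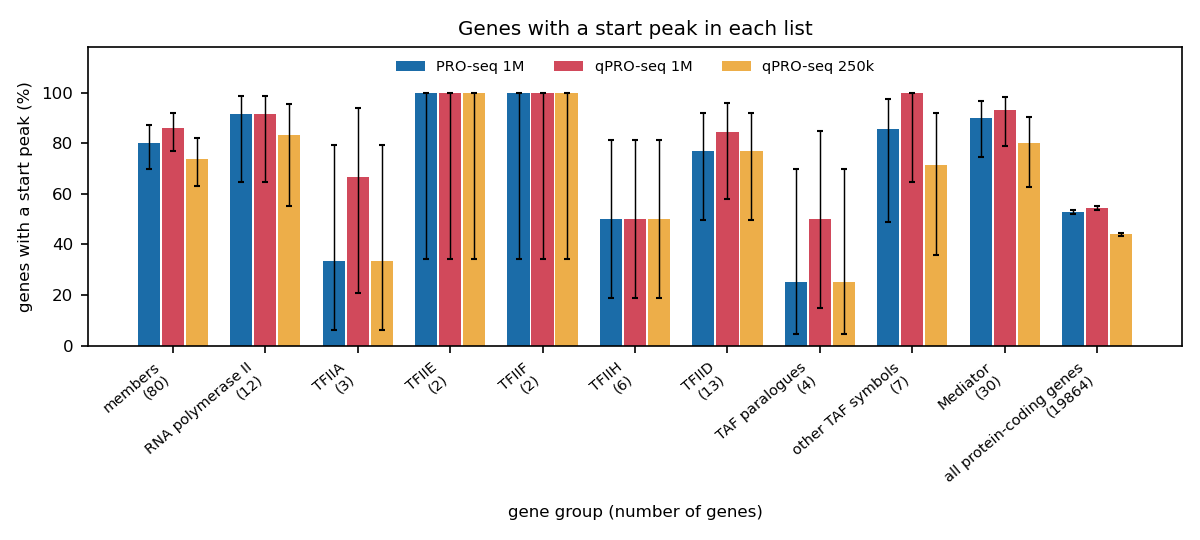
Percentage of genes with a start peak (vertical axis) in each group of genes (horizontal axis, number of genes in parentheses), 1 bar per peak list, with Wilson 95% intervals for counting error; TFIIB, a single gene with a peak in every list, is not drawn. TFIIH and the TAF paralogues stand lowest beside TFIIA, at 50.0% and between 25 and 50.0%, and the wide intervals reflect the few genes in each group.

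Each member was ranked by its top start peak, the one with the highest score, as a percentile: the percentage of peaks in the same list that score at or below it. A percentile describes a place within its own list and shows no change between lists. The members' median percentile was 75.3 for PRO-seq 1M, 84.9 for qPRO-seq 1M and 74.8 for qPRO-seq 250k. The medians over all genes with a start peak were 76.4, 80.7 and 68.2. A percentile above 90 was reached by 17 of 64, 28 of 69 and 11 of 59 members (26.6, 40.6 and 18.6%), beside 23.1, 28.4 and 17.3% of all genes with a start peak. Fewer members stood in the lower part of the list, with 10, 5 and 12 below percentile 50 (15.6, 7.25 and 20.3%, beside 18.8, 15.7 and 29.9% of all genes). These members passed by having a peak, so the medians do not speak for those without one.

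**Figure D2:**
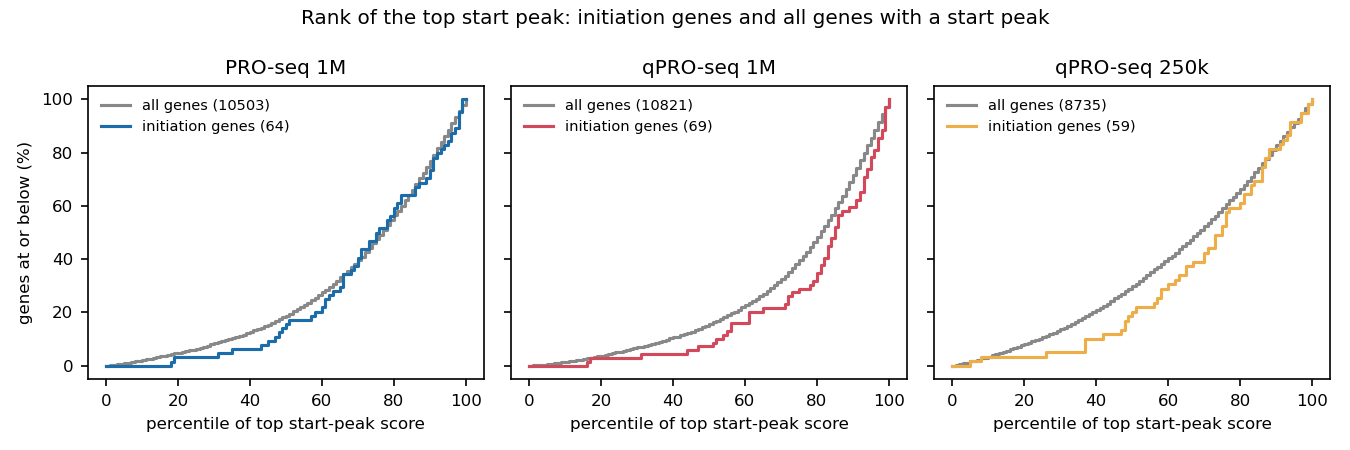
Percentage of genes (vertical axis) whose top start peak stands at or below a given percentile of its list (horizontal axis), for members with a start peak (coloured) and all protein-coding genes with one (grey), 1 panel per list. The curves lie close together in the PRO-seq 1M panel, where the medians were 75.3 and 76.4, and the members' curve lies to the right over most of the range in both qPRO-seq panels.

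A start peak was present for 11, 11 and 10 of the 12 polymerase subunit genes, with median percentiles of 68.0, 71.0 and 58.4. POLR2A, which encodes the largest subunit and carries the repeated C-terminal tail, stood at percentiles 91.1, 79.9 and 66.5. POLR2B, the second largest subunit, which forms the active centre with POLR2A, stood at 80.8, 92.8 and 72.3. In the 1M lists these POLR2B peaks lay away from its RefSeq start, where its highest peaks stood at 71.4 and 84.5. Both large subunits were above the median of the polymerase genes in every list.

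The 5 subunits that RNA polymerases I and III also use, encoded by POLR2E, POLR2F, POLR2H, POLR2K and POLR2L, had a start peak in every list. The top peaks of POLR2H lay away from its RefSeq start. Within 500 bp of that start its highest peaks stood at 58.9 and 55.5 in the 1M lists, and the qPRO-seq 250k list held none. POLR2K stood highest of the polymerase genes, at 98.9 in the qPRO-seq 1M list, beside 81.8 and 93.2 in the PRO-seq 1M and qPRO-seq 250k lists. POLR2F stood at 68.0, 71.0 and 4.2, the last in a peak of 220 bp, and POLR2L at 18.0, 54.4 and 36.7. The shared subunits thus stood far apart within the PRO-seq 1M and qPRO-seq 250k lists, and all stood above percentile 50 in the qPRO-seq 1M list. POLR2G, whose product forms with POLR2D a stalk on the polymerase, stood at 56.2, 44.0 and 47.1, among the 5 lowest members of the qPRO-seq 1M list. POLR2J, a small subunit of the assembly core, had peaks at 30.7 and 55.3 in the 1M lists, the latter 270 bp wide, and in the qPRO-seq 250k list the nearest peak lay 114906 bp from its starts.

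POLR2C was the polymerase gene without a start peak. It encodes a subunit of the platform on which the polymerase assembles, on chr16:57462387-57472010 (plus strand). Its nearest peak lay 14617, 14687 and 14787 bp from its starts, and none lay inside the gene. Within 1 Mb, 22, 25 and 16 of 45 protein-coding genes had a start peak, so the stretch was not bare of peaks. A missing peak says that the classifier listed none here, not that the gene was silent.

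Among the general factors, the genes of TFIIB, TFIIE and TFIIF had a start peak in every list. GTF2B, the single protein that bridges the promoter and the polymerase, stood at percentiles 50.8, 81.3 and 47.5 in peaks of 720, 730 and 620 bp. GTF2E1, the large TFIIE subunit, stood at 68.9, 96.5 and 70.0, and its qPRO-seq 1M peak of 920 bp was among the 5 widest. GTF2F1 stood at 57.7, 84.9 and 82.2 and GTF2F2 at 60.4, 95.7 and 36.0, so the subunits of TFIIF, which escorts the polymerase to the promoter, stood near each other in the PRO-seq 1M list and far apart in the qPRO-seq 250k list. TFIIA, which steadies the TATA-binding protein on DNA, was marked less evenly. GTF2A1 had peaks at 89.5, 82.8 and 75, GTF2A2 had one from qPRO-seq 1M only, at 46.4, and GTF2A1L, the paralogue known from germ cells, had none.

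TFIIH, which holds the helicases that open promoter DNA and a kinase, had 3 of its 6 genes marked in each list. That was 50.0%, beside 52.9, 54.5 and 44.0% of all protein-coding genes. GTF2H1 stood at percentiles 97.0, 92.1 and 92.8, GTF2H3 at 93.5, 93.7 and 80.6 and GTF2H5 at 98.5, 90.9 and 87.9. Their medians of 97.0, 92.1 and 87.9 were above those of all members. GTF2H2, GTF2H2C and GTF2H4 had no start peak in any list. The share marked was thus close to that of genes in general, and each marked gene stood above the members' median in every list.

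The surroundings of GTF2H4 and GTF2H2 were also short of peaks, and those of GTF2H2C less so. GTF2H4 lies on chr6:30908184-30914106, and the nearest peak was 2291754, 92414 and 2416054 bp away. Of 89 protein-coding genes within 1 Mb, 0, 2 and 0 had a start peak (0, 2.25 and 0%), beside a median of 57.5, 58.6 and 46.2% around the 80 members. The lists also held 25, 66 and 16 peaks on alternate scaffolds of chromosome 6, and their part in the missing peaks was not tested. GTF2H2 (chr5:71032670-71067689) had 0, 2 and 0 of only 6 such neighbours marked (0, 33.3 and 0%). Its near-copy GTF2H2C (chr5:69560208-69594723) had 3, 6 and 3 of 13 (23.1, 46.2 and 23.1%). Low shares also occurred around members marked in every list, such as TAF7 (25.3, 21.7 and 21.7%). How reads were assigned between GTF2H2 and GTF2H2C is not given in the sources used here, and its part in the missing peaks was not tested.

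**Figure D3:**
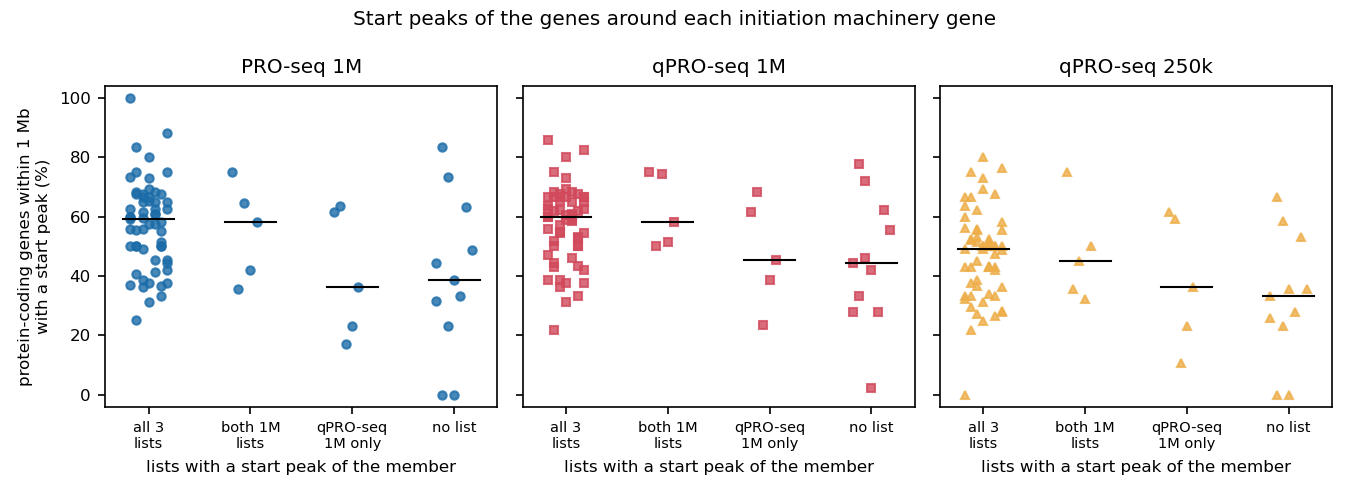
Percentage of protein-coding genes within 1 Mb of each member that have a start peak (vertical axis), with members placed by the lists in which they had a start peak themselves (horizontal axis), 1 panel per list; points are members and bars are medians. The medians for members marked in all 3 lists and in none were 59.1 and 38.7% (PRO-seq 1M), 60.0 and 44.4% (qPRO-seq 1M) and 49.2 and 33.3% (qPRO-seq 250k), and the points overlap widely.

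TFIID reads the core promoter, and 10, 11 and 10 of its 13 TAF genes had a start peak, with median percentiles of 79.5, 80.6 and 81.0. TAF7, which binds TAF1, had the highest percentile of all members in the qPRO-seq 1M list, at 99.4, and stood at 94.7 and 99.2 in the PRO-seq 1M and qPRO-seq 250k lists. TAF13, which pairs with TAF11 through a histone fold, followed at 97.6, 99.3 and 98.6. Its ETS letters begin 22 bases before the RefSeq start, and the centre of its qPRO-seq 1M peak lay 33 bases after that start. TAF7 and TAF13 were among the 8 members above percentile 90 in every list.

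TAF1, the largest subunit and a scaffold of the complex, stood at percentiles 92.8, 94.3 and 86.7 in peaks of 480, 940 and 450 bp. TAF4, another core subunit, stood at 81.4, 71.6 and 82.8, and its qPRO-seq 1M peak of 340 bp was among the narrowest. TAF9, a histone-fold subunit, was marked by qPRO-seq 1M only, at percentile 16.9. That peak, at chr5:69369441-69369900, also lay within 500 bp of starts of AK6 and RAD17. Of 13 genes within 1 Mb of TAF9, 3, 5 and 3 had a start peak, a lower share than around the median member.

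TAF6 and TAF10 had no start peak in any list. TAF6 encodes the histone-fold partner of TAF9 and lies on chr7:100107070-100119841, with a start of CNPY4 within 500 bp. Its nearest peaks were 6320, 6570 and 7030 bp away, while 55, 54 and 44 of 75 genes within 1 Mb were marked. TAF10 encodes another histone-fold subunit, on chr11:6606296-6612667. Its nearest peaks were 5754, 5304 and 5394 bp away, and 17, 15 and 14 of 54 genes around it were marked. The genes around TAF6 were thus marked more often than around the median member, and those around TAF10 less often.

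The paralogues of TAFs were marked least often among the TAF genes, with 1, 2 and 1 of 4 genes. TAF4B, a relative of TAF4 known from germ cells and B cells, stood at percentiles 90.2, 90.9 and 91.9. TAF9B was marked by qPRO-seq 1M only, at 77.7. TAF1L and TAF7L, known for expression in testis, had none in any list.

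Some TAF symbols belong to other complexes. TAF1A, TAF1B, TAF1C and TAF1D encode subunits of SL1, the selectivity factor of RNA polymerase I, and all 4 had a start peak in every list, with median percentiles of 95.6, 97.1 and 80.5. TAF1A stood at 97.8, 97.8 and 90.6, and TAF1C was the lowest of the 4 in each list, at 44.4, 71.9 and 57.5. In the 1M lists TAF1D entered these medians by a peak it shares with MED17, away from its RefSeq start. At that start its highest peaks in the 1M lists stood at 77.6 and 80.1. TAF5L and TAF6L belong to SAGA, a histone acetyltransferase coactivator. TAF5L stood at 89.1, 88.1 and 93.7, and its qPRO-seq 1M peak of 1430 bp was the widest top peak of any member. TAF6L stood at 34.6 and 15.9 in the 1M lists, the lower being the lowest of the members in the qPRO-seq 1M list, and had none in the qPRO-seq 250k list. TAF15, an RNA-binding protein of the FET family, was marked by qPRO-seq 1M only, at percentile 30.4. That peak, at chr17:35809321-35809500, was only 180 bp wide and covered an annotated start of TAF15.

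Mediator was marked at 27, 28 and 24 of its 30 genes, with median percentiles of 74.4, 85.8 and 73.8. The head module, which touches the polymerase, was marked at 7, 7 and 6 of 7 genes with medians of 90.7, 92.3 and 61.8. The middle module was marked at 9, 9 and 7 of 9, the tail, which meets activators, at 7, 8 and 7 of 9, and the kinase module, which can detach, at 3 of 4 in every list. The modules of Mediator hold few genes each, and no module was tested against another.

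In the head, MED18, which binds MED20, stood at percentiles 98.5, 98.8 and 98.3 in peaks of 770, 780 and 610 bp. MED17, a central head subunit, stood at 95, 98.8 and 72.7. MED8 stood at 97.1, 92.3 and 96.1. MED6 stood at 65.8 and 98.4 in the 1M lists and had no start peak in the qPRO-seq 250k list, where the nearest peak lay 209011 bp away. A high percentile in one list therefore did not ensure a peak in another.

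MED14, the scaffold that joins the modules, stood at percentiles 88.4, 98.1 and 72.8. MED1, the middle subunit known for binding nuclear receptors, stood at 78.4, 92.4 and 93.5. MED26, whose product also binds elongation factors, stood at 64.5, 82.1 and 64.1. MED4 and MED9, both of the middle module, had peaks at 70.3 and 53.3 and at 46.7 and 55.1 in the 1M lists and none from 250k cells, where the nearest peaks lay 41595 and 106199 bp away. The MED4 peak in the qPRO-seq 1M list, at 350 bp, was among the narrowest. These were the middle-module genes that the qPRO-seq 250k list lacked.

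In the tail, MED15, a target of activators, stood at percentiles 98.3, 97.2 and 96.4, in peaks away from its RefSeq start. At that start its highest peaks stood at 67.2, 76.2 and 57.8. MED16 stood at 17.7, 72.6 and 75.4, the lowest member of the PRO-seq 1M list. MED30 stood at 72.9, 93.2 and 7.5. MED27 had 1 start peak, in the qPRO-seq 1M list at percentile 60.8, and it lay 425 bp from the nearest start, near the edge of the window. MED25 had none, but the PRO-seq 1M list held a peak 599 bp from its starts, just outside the window, and the nearest peaks of the other lists lay 41393 and 41493 bp away. These distances show which tail genes the window decides.

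In the kinase module, MED12, which activates the kinase, stood at percentiles 70.9, 95.2 and 76.6, MED13 at 42.3, 83.5 and 86.2 and MED13L at 74.4, 85.7 and 75.4. Between the 1M lists the top peaks did not overlap for MED13 (centres 750 bp apart) or MED13L (1420 bp apart). The MED13L peak at 85.7 lay away from its RefSeq start, near which the highest peak in that list stood at 67.9. MED12L, the paralogue of MED12, had no peak within 321467 bp of its starts in any list. GTF2A1L, TAF1L and TAF7L, paralogues of other members, were also unmarked, with nearest peaks at least 55444 bp away.

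**Figure D4:**
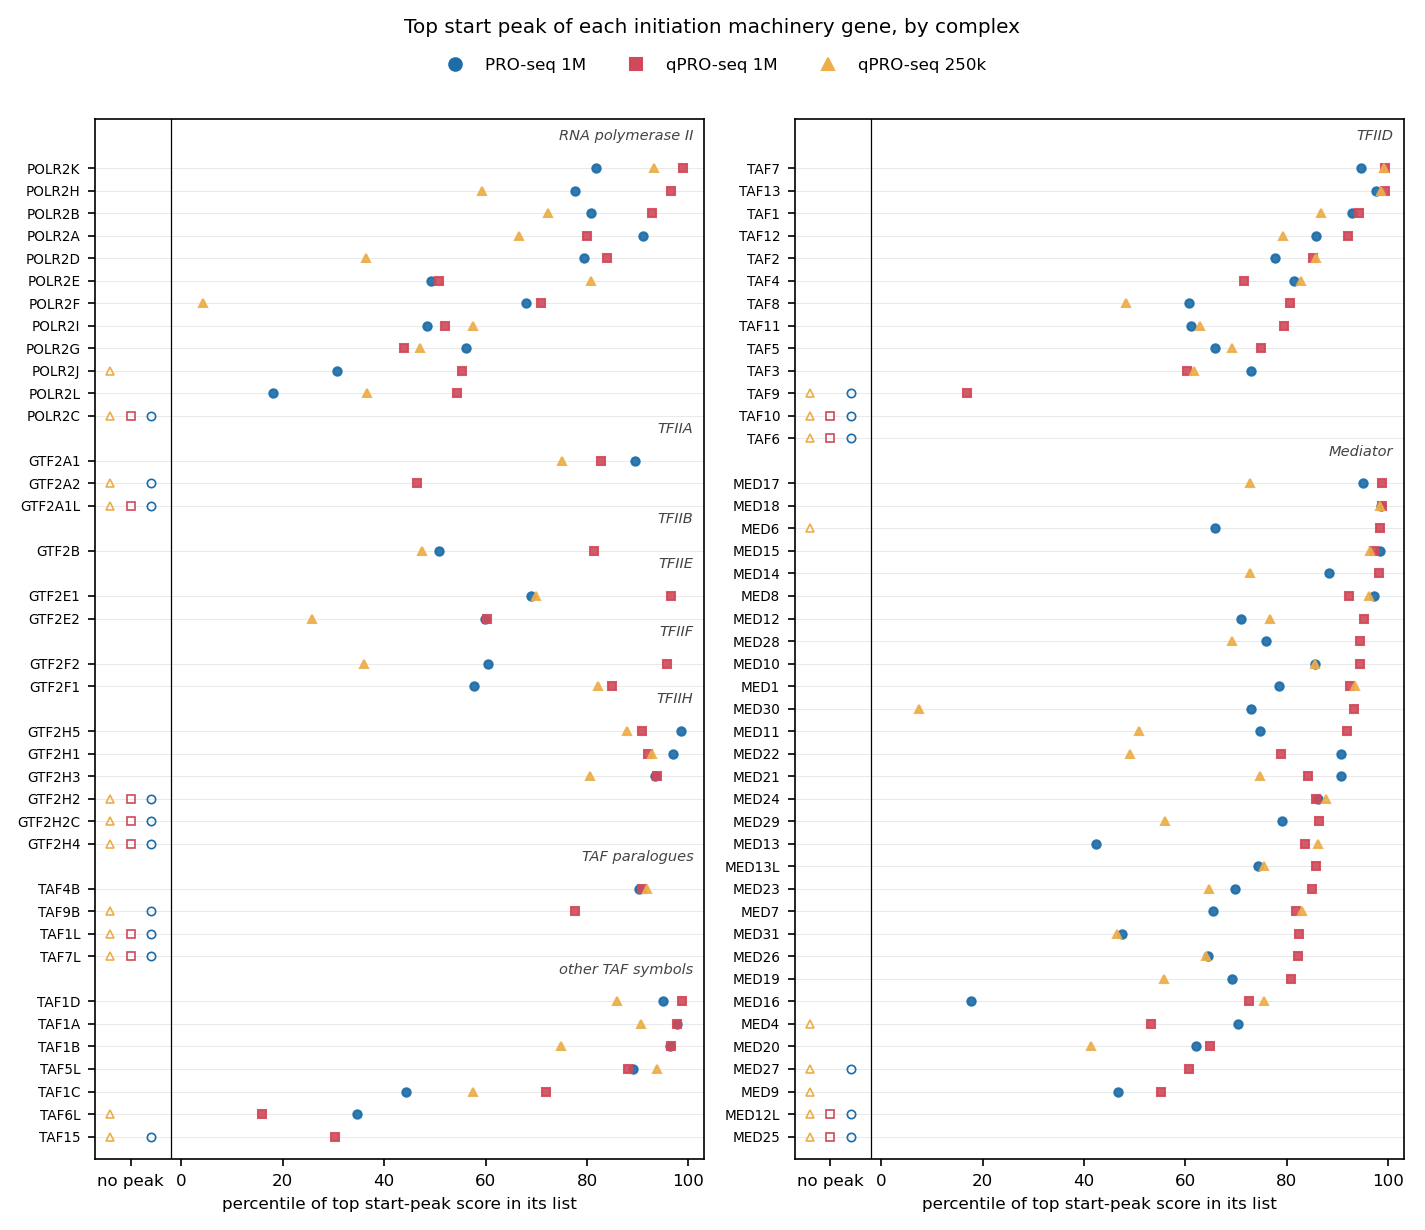
Percentile of the top start peak within its list (horizontal axis) for each of the 80 members (vertical axis), grouped by complex. Within a complex, members are ordered by their highest percentile in any list. Open symbols at the left mark genes with no start peak in the list of that colour. MED18 stands between 98.3 and 98.8 in the lists, and the open symbols include the 11 members that no list marked.

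Of the 59 members marked in every list, 8 stood above percentile 90 in each (13.6%, beside 10.8% of 8566 such genes). They were MED8, MED15, MED18, GTF2H1, TAF1A, TAF4B, TAF7 and TAF13. MED15 ranked there by a peak away from its RefSeq start. No member stood below percentile 50 in all 3, and the share of all genes that did was not counted.

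The lists placed the peaks themselves at nearly the same spot. Of the 64 members marked in both 1M lists, the top peaks overlapped for 60 (93.8%, beside 90.3% of all genes), with a median distance between centres of 30 bp (40 bp for all genes). Between the qPRO-seq lists 54 of 59 overlapped (91.5%, beside 90.7%), also at a median of 30 bp. In the qPRO-seq 250k list 48 of these 59 peaks were narrower than in the qPRO-seq 1M list, beside 6386 of 8670 for all genes. Over all pairs, wider ones included, the median change in width was -110 bp, beside -100 bp for all genes. Median widths of the top peaks were 535, 570 and 470 bp, beside 550, 540 and 470 bp for all genes. Members' peaks were thus about as wide as those of other genes. In the qPRO-seq 1M list the widest were those of TAF5L (1430 bp), TAF1 (940 bp), GTF2E1 (920 bp), MED15 (890 bp) and the shared peak of MED17 and TAF1D (870 bp), and the narrowest those of TAF15 (180 bp), POLR2J (270 bp), POLR2F and TAF4 (340 bp each) and MED4 (350 bp).

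Peak centres lay mostly just before the annotated start. For members with a RefSeq start and a top peak centred within 1000 bp of it, the median offset was 53, 51 and 50 bases upstream, beside 52, 57 and 54 for all genes. The centre was upstream for 77.8, 75 and 84.1% of these members, beside 77.4, 79.4 and 81.6% of such genes. More than 1 start peak was found for 26, 38 and 15 members (40.6, 55.1 and 25.4% of those marked), beside 49.6, 61.6 and 32.7% of all marked genes.

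Only MED15 and TAF1D had start regions more than 1000 bp apart. MED15 (chromosome 22, plus strand) had its top peak in every list in the upstream region, at chr22:20495451-20496340 in the qPRO-seq 1M list. That peak lay near a start of KLHL22 as well. The region at its RefSeq start, base 20507610, held peaks up to percentiles 67.2, 76.2 and 57.8. TAF1D (chromosome 11, minus strand) had its top peak in both 1M lists at chr11:93783701-93784680 and chr11:93783671-93784540, which is also the top peak of MED17 on the opposite strand. At the RefSeq start of TAF1D, base 93741495, the highest peaks stood at 77.6, 80.1 and 86.0, and in the qPRO-seq 250k list this was the gene's top peak. The high place of TAF1D in the 1M lists is thus that of a peak shared with another member.

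A top peak near a start of another protein-coding gene was the case for 22, 23 and 23 members (34.4, 33.3 and 39.0% of those marked), beside 27.6, 27 and 29.6% of all marked genes. In the qPRO-seq 1M list the 5 highest were MED17 and TAF1D, which share theirs, MED15 with KLHL22, GTF2E1 with RABL3, and GTF2H3 with EIF2B1. Others included GTF2H1 with HPS5, MED29 with PAF1, MED22 with RPL7A and POLR2A with ZBTB4. For these genes a peak cannot be assigned to one partner. Counting only start peaks near no other protein-coding gene, 47, 50 and 39 members were marked, beside 40.1, 42.7 and 32.1% of all genes. In all 3 lists 39 were marked, beside 31.0% of all genes.

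The sequence windows were described apart from the peaks. The ETS letters CCGGAAG were found in 25 of 63 member windows (39.7%, Wilson 95% interval 28.5 to 52.0%), beside 14.4% of 14866 promoter windows. Among genes marked in all 3 lists, 21 of 46 members held them (45.7%), beside 22.8% of 6821 genes. In 20 of the 25 windows (80.0%) a match began within 50 bases of the start, as it did in 58.6% of all windows with a match. The members with a match came from several complexes: GTF2A1 and GTF2A2 of TFIIA, GTF2F1, GTF2H1, GTF2H2, GTF2H2C and GTF2H3, POLR2C, POLR2D and POLR2F, TAF1, TAF3, TAF12 and TAF13 of TFIID, TAF1A to TAF1D of SL1, and MED7, MED11, MED15, MED17, MED18, MED29 and MED31. All 4 SL1 genes held it, and so did POLR2C, which has no start peak. The windows of GTF2B, GTF2E1, TAF5L, TAF6L, the matched TAF paralogues and the matched genes of the Mediator kinase module held none.

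Of the other motifs, AAGATGGC was found in a larger share of members' windows than of all windows, and the rest in a smaller share, though for TATAAA the order turned among genes marked in all 3 lists. AAGATGGC, the core bound by YY1, was in 8 windows (12.7%, 6.58 to 23.1%, beside 4% of all), among them MED1, TAF5 and TAF6, where it begins at base 16, 12 and 11, counting the start as base 1. The GC box GGGCGG was found in 35 windows (55.6%, beside 59.4%). Among genes marked in all lists 54.3% of members held it, beside 72.5% of genes. CCAAT was found in 20 windows (31.7%, beside 36.3%) and GCATGCGC in 2, MED18 and POLR2F (3.17%, beside 4.31%). TATAAA was found in 4 (6.35%, beside 9.38%): GTF2B, where it begins 29 bases before the start, TAF4B, MED7 and MED16. Among genes marked in all lists these were 8.70% of members, beside 4.84% of genes. No motif of the search contains another. The members' windows had a median GC content of 59.3%, beside 63.0%, and a median of 24 CpG sites, beside 22.

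**Figure D5:**
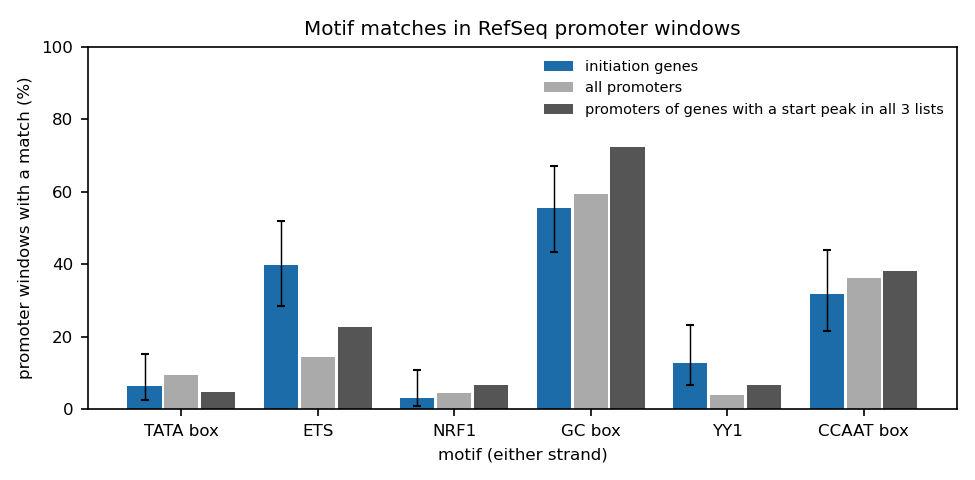
Percentage of RefSeq promoter windows (vertical axis) that hold each motif on either strand (horizontal axis), for the 63 matched members with Wilson 95% intervals, for all 14866 windows and for the 6821 windows of genes with a start peak in all 3 lists. The ETS bars differ most, at 39.7, 14.4 and 22.8%.

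Partners of the machinery whose symbols fall outside the rule were read from a list of 33 genes, and 27, 28 and 26 of them had a start peak (52.9, 54.5 and 44.0% of all genes). TBP, the TATA-binding protein around which TFIID is built, stood at percentiles 74.1, 57.2 and 44.6. CCNT1, the cyclin of the elongation kinase P-TEFb, stood at 99.1, 99.0 and 99.1, and CDK8, the kinase of Mediator, at 21.4 and 59.9 with none in the qPRO-seq 250k list. TFIIH genes outside the rule were likewise marked unevenly: CCNH stood at 95.3, 98.7 and 92.4, ERCC2 at 82.5, 92.8 and 89.1 and ERCC3 at 58.2, 64.3 and 69.9, while CDK7 and MNAT1, which form the kinase with CCNH, had none. TBPL2, TCEA3 and NELFE also had none in any list.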

How the data were processed

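Nascent RNA was measured in 6 K562 libraries, and samples were assigned to groups by title, with 1 peak list per group. The authors deposited dREG peaks with a score (no fixed unit, used only within a list) and a p-value between 0 and 0.05, whose adjustment is not stated. The submitters' processing notes name fastp 0.20.0, Bowtie2 2.3.5.1, UMI-tools, deepTools 3.1.3 and build GRCh38. The version and thresholds of dREG, the pooling of replicates and the treatment of reads with several matches are not given in the sources used here. Read depth is unknown.

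Gene starts were those of GENCODE 29. A peak within 500 bp of any annotated start was a start peak, and peak positions are printed counted from 1. Tables were computed with Python 3.11.15, pandas 2.3.3 and numpy 2.4.6, figures were drawn with matplotlib 3.10.9, and the assignment of peaks to genes was tested on simulated data. No p-value was computed, since 1 list stands for both replicates. Wilson 95% intervals cover counting error only. The members, the lists of partner genes and markers, the motifs and the rule for named genes were chosen with earlier results of these data known. The rule names members lacking a start peak in any list, the 5 highest, lowest, widest and narrowest in the qPRO-seq 1M list, those with separate start regions, the 5 highest sharing a peak with another gene, and POLR2A, GTF2B, TAF1, TAF4, MED1, MED12, MED14 and MED26. Other members were named after their values were seen. One lymphoid marker is not reported here. The alternatives were windows of 250 and 1000 bp, starts of protein-coding transcripts only, a limit of 0.01 on p, lists of equal size, peaks at or above the median score, and merging of peaks within 500 bp. After seeing the data, the RefSeq start alone and peaks near no other gene were added.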

Additional observations from a re-analysis of the deposited data

Results flagged for a closer look

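Peaks outside the main chromosomes entered no comparison. Alternate scaffolds of chromosome 6, the chromosome of GTF2H4, MED20, MED23, TAF8, TAF11 and GTF2H5, held 25 (PRO-seq 1M), 66 (qPRO-seq 1M) and 16 peaks (qPRO-seq 250k). The flag marks numbers above 3 and was applied to chromosome 6 alone. It tests nothing, since no count of 0 was expected. Scaffolds of other chromosomes passed 3 as well, such as those of chromosome 17 with 15 peaks in the qPRO-seq 1M list. Over all alternate scaffolds the lists held 44, 145 and 28 peaks. Genes on these scaffolds were not analysed here, and the part of these peaks in the missing start peak of GTF2H4 was not tested.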

How the results depend on the processing

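Of 90 values recomputed under other settings, 79 stayed close (a count within 1.5 times, a median within its 95% binomial interval) and 11 moved. The median percentile of members moved from 75.3 to 64.4 (equal list sizes), 58.6 (peaks at or above the median score) and 67.6 (peaks within 500 bp merged) in the PRO-seq 1M list. It moved from 84.9 to 68.6, 70.8 and 77.8 under the same settings in the qPRO-seq 1M list, and from 74.8 to 58.3 with peaks at or above the median score in the qPRO-seq 250k list. These settings leave fewer or other peaks to rank against, and the medians over all genes moved too. In the same order those were 67.5, 63.2 and 67.6 (PRO-seq 1M), 65.2, 68.9 and 73.1 (qPRO-seq 1M) and 58.1 (qPRO-seq 250k). The members' median was thus no higher than that of all genes in the PRO-seq 1M list and higher in the qPRO-seq 1M list. In the qPRO-seq 250k list it was about level under that setting. Merging widened the median top peak to 800 bp (PRO-seq 1M) and 920 bp (qPRO-seq 1M), beside 810 and 1020 bp for all genes. In the qPRO-seq 1M list the members' median width was thus above that of all genes before merging and below it after. With start peaks of no other protein-coding gene, the count was 39 both in the qPRO-seq 250k list and in all 3 lists, since shared peaks are then left out. The shares over all genes were then 32.1 and 31.0%. No paired analysis was possible because each group has 1 list and its columns carry no replicate, and for the same reason no replicate could be left out. Depth is unknown, so a gene without a peak may lie below what a list could detect.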

Other observations

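Genes of the other nuclear polymerases were read in the same way. Of 15 genes with POLR1 or POLR3 symbols, 15, 14 and 13 had a start peak, with values in the order of the lists as before (PRO-seq 1M first, qPRO-seq 250k last), beside 52.9, 54.5 and 44.0% of all protein-coding genes. POLR3D, a subunit of RNA polymerase III, stood at percentiles 99.9, 99.9 and 99.3, above every member of the polymerase II machinery. POLR3F had a start peak in the PRO-seq 1M list alone, at 48.6, and POLR3E stood at 24.3 and 19.6 with none in the qPRO-seq 250k list.

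Some members also held peaks inside the gene and away from their starts. There were 16 such peaks in 11 members for PRO-seq 1M, 25 in 16 members for qPRO-seq 1M and 8 in 5 members for qPRO-seq 250k. These were 13.8, 20 and 6.25% of the members, beside 15.6, 26.7 and 9.90% of all protein-coding genes. TAF6L held 2 in each list, and MED15 held 2, 3 and 1. TAF1 held 2, 2 and 1.

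The extended family of POLR2J was marked unevenly. POLR2J2 stood at percentiles 21.6, 54.7 and 8.1, and POLR2J3 was marked by qPRO-seq 1M only, at 16.0. How reads were assigned among these related genes is not given in the sources used here.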
